A study of Mus musculus with 18 samples.

Results

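The 6 Dlx genes of the mouse form 3 linked pairs, and the mark H3K27me3 was followed over each pair in the medial ganglionic eminence (MGE), the ventral forebrain domain that gives rise to many cortical and striatal interneurons. Dlx1 and Dlx2, Dlx5 and Dlx6, and Dlx3 and Dlx4 were taken as 3 loci, each running from 2500 bp before the first gene body to 2500 bp past the last one and including the spacer between the genes. Every deposited interval that overlapped such a locus was kept. This gave 61 intervals of 98434 in the 12 libraries, of which 21 lay at Dlx1/2, 12 at Dlx5/6 and 28 at Dlx3/4, and the 6 genes are 6 of 21627 protein-coding genes of the reference table.

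The libraries are bulk CUT&Tag, in which a transposase tethered to an antibody cuts and tags DNA next to the mark. Ezh2 encodes a methyltransferase of Polycomb repressive complex 2 that places H3K27me3, and the study asks what its loss does to the mark in the MGE. Wild-type (WT) and Ezh2 knockout (KO) MGE was collected at E12.5 and E15.5, with 3 libraries labelled as biological replicates in each of the 4 groups. The KO is titled Nkx2.1-CreC/+;Ezh2;Ai9F/+, and its parents were Nkx2.1-CreC/C;Ezh2F/+ males and Ai9F/F;Ezh2F/+ females. With this cross every embryo, WT included, carries 1 Cre allele and 1 allele of the Ai9 reporter. The Cre follows Nkx2.1, so that cells outside that lineage keep Ezh2, and a library may hold the MGEs of several embryos of 1 genotype. At E12.5 the MGE was taken whole, and at E15.5 it was dissected under fluorescence for reporter-positive tissue, so that stage and dissection cannot be told apart. Of the 18 samples, 6 are labelled heterozygous and were not analysed here.

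Dlx genes encode homeodomain transcription factors related to Distal-less of the fly. In the ventral forebrain Dlx1 and Dlx2 are expressed first, in progenitors, and Dlx5 and Dlx6 follow as cells leave the cycle. The 4 factors drive GABAergic fate and interneuron migration, and the spacers of both pairs hold well-known enhancers that the DLX factors themselves bind. Dlx3 and Dlx4 serve in skin, teeth, placenta and the facial skeleton and are not known as forebrain genes. H3K27me3 marks silent developmental genes, so that in a bulk sample the pairs can be compared as 2 that are used in this tissue and 1 that is not.

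On assembly GRCm38, Dlx1 lies at chr2:71528113-71533981 and Dlx2 at chr2:71543408-71546754, 9426 bp apart. Dlx6 lies at chr6:6863334-6867970 and Dlx5 at chr6:6877801-6882068, 9830 bp apart. Dlx3 lies at chr11:95120117-95125296 and Dlx4 at chr11:95140447-95146294, 15150 bp apart. Among the 6 genes, the RefSeq table of promoters (GRCm38.p6, 250 bases before to 50 after a start) held Dlx1 and Dlx2, and it also held Dlx6os1, the noncoding RNA known as Evf2 that is transcribed across the Dlx5/6 locus. Dlx1 and Dlx2 are shown as the members that the table holds, and 1 window of Dlx6os1 is shown to stand for the Dlx5/6 spacer. It was chosen among the noncoding windows after their sequences were seen, as the one that lies in the spacer and holds the most TAATTA. Those not shown are a second Dlx6os1 window (chr6:6861634-6861933) with 3 CG and 1 TAATTA, and the windows of Dlx6os2 and Dlx4os with 0 TAATTA each, and all of them lay inside an interval in 12 of 12 libraries. The Dlx1 window is chr2:71529195-71529494 on the plus strand, the Dlx2 window is chr2:71546705-71547004 on the minus strand, and the Dlx6os1 window is chr6:6869484-6869783 on the minus strand, in the Dlx5/6 spacer. Capitals mark each CG in the Dlx1 and Dlx2 sequences and each TAATTA, the letters of a homeodomain core motif that read the same on both strands, in the Dlx6os1 sequence.
Dlx1: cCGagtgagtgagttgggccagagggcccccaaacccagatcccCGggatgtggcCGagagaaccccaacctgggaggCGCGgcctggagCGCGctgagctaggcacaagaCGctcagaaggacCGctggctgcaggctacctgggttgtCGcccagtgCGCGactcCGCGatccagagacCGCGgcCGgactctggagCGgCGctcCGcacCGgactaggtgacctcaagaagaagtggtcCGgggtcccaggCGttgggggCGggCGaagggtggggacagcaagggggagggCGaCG
Dlx2: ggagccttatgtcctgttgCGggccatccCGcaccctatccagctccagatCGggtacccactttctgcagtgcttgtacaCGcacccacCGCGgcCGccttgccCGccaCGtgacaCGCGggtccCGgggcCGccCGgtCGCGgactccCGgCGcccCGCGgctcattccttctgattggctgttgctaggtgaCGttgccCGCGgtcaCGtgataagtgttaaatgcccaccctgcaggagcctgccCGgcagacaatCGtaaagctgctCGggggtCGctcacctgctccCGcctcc
Dlx6os1: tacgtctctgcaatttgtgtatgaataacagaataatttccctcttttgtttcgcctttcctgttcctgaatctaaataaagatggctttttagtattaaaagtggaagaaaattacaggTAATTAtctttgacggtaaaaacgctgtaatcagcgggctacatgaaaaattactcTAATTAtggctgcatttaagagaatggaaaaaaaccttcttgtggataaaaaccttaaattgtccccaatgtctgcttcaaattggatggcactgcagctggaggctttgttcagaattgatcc
The Dlx1 window held 27 CG and the Dlx2 window 29, against a median of 7 over 32851 promoters of the table. As many or more were held by 15.52% of those promoters for Dlx1 and by 12.9% for Dlx2. The Dlx6os1 window held 5 CG and 2 TAATTA, and 5.29% of all promoters of this length held TAATTA at least once. The Dlx1 and Dlx6os1 windows lay wholly inside an interval in 12 of 12 libraries and the Dlx2 window in 10 of 12. Neither the Dlx1 nor the Dlx2 window held TAATTA.

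Depth was measured as the mean count per 200 bp window that the deposited scores imply. It ranged from 0.117 to 0.698 in E12.5 WT, from 0.212 to 0.272 in E12.5 KO, from 0.0751 to 0.150 in E15.5 WT and from 0.179 to 0.346 in E15.5 KO. Counts divided by this depth and multiplied by its mean over the 12 libraries are called normalised counts. Every E15.5 KO library was deeper than every E15.5 WT library, so depth and genotype cannot be told apart at that stage. The lists hold no value outside their intervals, and intervals of deeper lists can run further. The lists give no check of the deletion of Ezh2 itself. Nothing in the labels says whether replicates came from separate litters, so the p-values measure the spread between these libraries.

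All 3 loci carried the mark in every library, at both stages and in both genotypes. Intervals covered from 87.1% to 100% of the Dlx1/2 locus, from 92.6% to 100% of the Dlx5/6 locus and from 81.4% to 100% of the Dlx3/4 locus. Dlx4 and Dlx6 with their flanks were covered to 100% in all 12 libraries, and the lowest cover of a single gene was 71.2%, at Dlx2. Covered share therefore left little room for a change. Between KO and WT over both stages it differed by 0.56 percentage points at Dlx1/2 (exact permutation within the stages, two-sided, p = 0.9), by 2.18 at Dlx5/6 (exact permutation p = 0.15) and by 0.86 at Dlx3/4 (exact permutation p = 0.845).

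The 3 domains had different shapes. The Dlx5/6 domain was 1 unbroken interval in 12 of 12 libraries, 35.6 to 42.8 kb long. It reached 16.1 to 20.5 kb beyond Dlx6, over the body of Dlx6os1 (chr6:6820543-6871627), and only 0.732 to 4.33 kb beyond Dlx5. The nearest protein-coding gene on the Dlx5 side, Sdhaf3, a mitochondrial assembly factor, starts at base 6955971, 69.6 kb beyond the region, and Sem1, a proteasome subunit gene, ends 264 kb before it.

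The Dlx1/2 domain spanned 22.2 to 38.4 kb and was a single interval in 4 of 12 libraries. Its dense part ended close to the Dlx2 end of the locus: in 9 of 12 libraries the interval over Dlx2 stopped 46 to 1846 bp past the gene's outer end, which is where its promoter lies. A weaker interval followed in these 9 libraries, after a gap of 800 to 3800 bp. In E12.5 KO replicate 2, for example, the interval over the genes held 161 normalised counts per kb and the next one 23.1. On the Dlx1 side the domain started 3.31 to 11.1 kb before the gene and ran into the end of Metap1d, a methionine aminopeptidase gene that ends at base 71525194, in 12 of 12 libraries. The nearest protein-coding gene past Dlx2, the integrin gene Itga6, starts 231 kb beyond the region. A gap inside the spacer was seen in 2 of 12 libraries, E15.5 WT replicates 1 and 2, at depths of 0.0751 and 0.129.

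The Dlx3/4 domain spanned 37.4 to 57.2 kb and was broken in the spacer in 10 of 12 libraries. The exceptions were E12.5 WT replicate 2 and E15.5 KO replicate 1, with 1 interval over both genes. Its neighbours, the integrin gene Itga3 and the tachykinin gene Tac4, lay 35.4 and 92.1 kb outside the region. In the 10 libraries with separate intervals, the one over Dlx3 held 91.9 to 182 normalised counts per kb and the one over Dlx4 held 163 to 290. The Dlx4 interval was the denser in 9 of the 10, with a median ratio of 1.49 and a range from 0.923 in E15.5 WT replicate 3 to 2.38. The genes of a pair otherwise share intervals, so that their values are not independent, and the pairs were tested as loci.

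**Figure D1:**
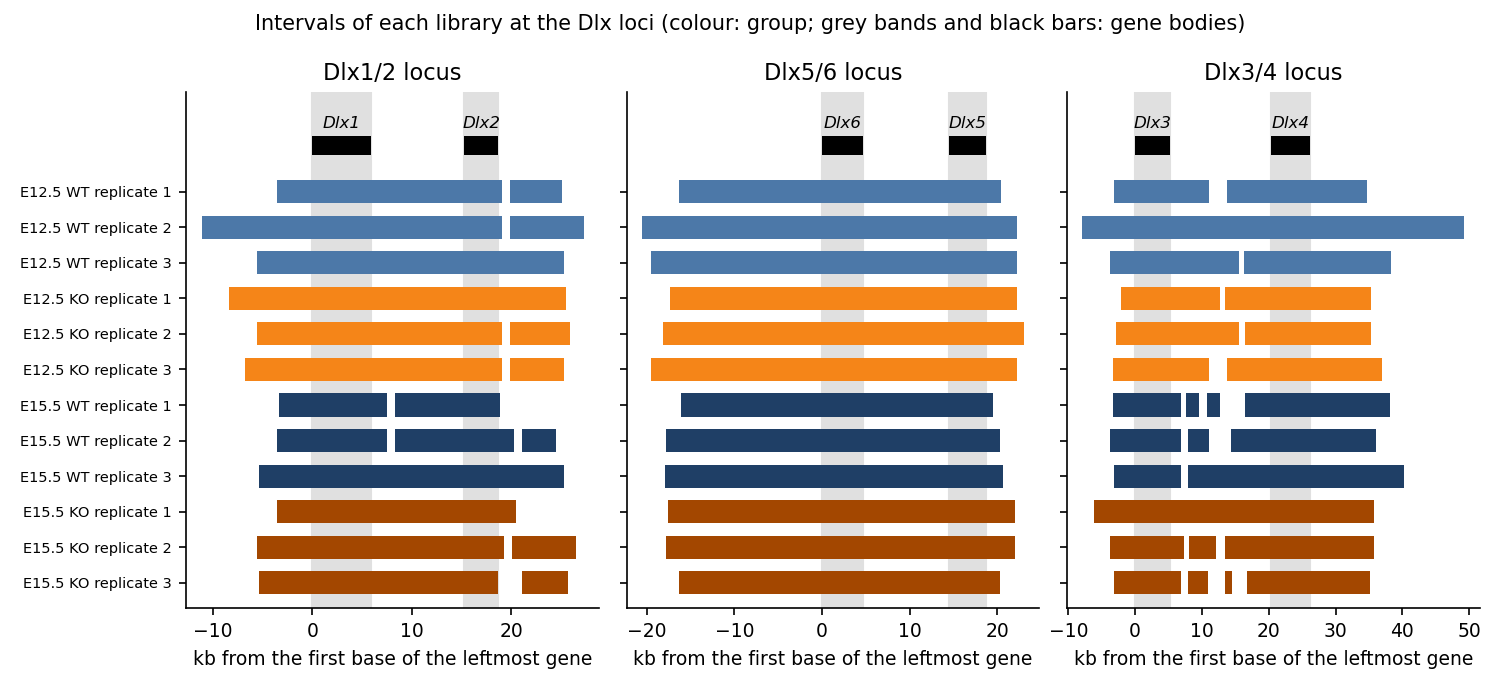
Intervals of the 12 libraries (rows, coloured by group) at the 3 loci, against the distance in kb from the first base of the leftmost gene. Grey bands and black bars are gene bodies; the Dlx5/6 domain is 1 interval in every library, and the Dlx3/4 domain is broken between the genes in 10 of 12.

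Per kb of interval in its region, the mark was densest at Dlx3/4 and thinnest at Dlx1/2 in both WT groups and in E15.5 KO. In E12.5 KO the mean was higher at Dlx5/6 than at Dlx3/4. A region is the merged stretch of the intervals of all 12 libraries. Its counts were divided by the kb that a library's own intervals cover in it, not by the whole stretch. The E12.5 WT libraries had 80.1 ± 20.1 normalised counts per kb in the Dlx1/2 region (SD, n = 3), 130 ± 29.3 in Dlx5/6 and 165 ± 58.9 in Dlx3/4. In E15.5 WT the values were 49.6 ± 5.87, 69.8 ± 9.09 and 175 ± 14.4 (SD, n = 3). In E12.5 KO they were 117 ± 20.8, 160 ± 26.2 and 149 ± 12.6, and in E15.5 KO 52.6 ± 2.71, 78.7 ± 7.62 and 168 ± 28.7 (SD, n = 3), with Dlx5/6 and Dlx3/4 within their SD of each other in E12.5 KO. Among 2367 autosomal regions present in all 12 libraries the median was 29.0 per kb in E12.5 WT and 25.2 in E15.5 WT. Even Dlx1/2 therefore lay above the median, denser than 86.4% of regions in E12.5 WT and 74.6% in E15.5 WT, and Dlx3/4 was denser than 96.4% and 95.6%. In a bulk library, fewer cells with the mark and less mark per cell cannot be told apart.

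From E12.5 to E15.5 the mark fell at the forebrain pairs, and no such fall was measured at Dlx3/4. At Dlx1/2 the normalised counts of replicates 1 to 3 were 2894, 2332 and 2357 in E12.5 WT and 1197, 1131 and 1616 in E15.5 WT. The KO libraries held 3154, 4093 and 4184 at E12.5 and 1409, 1721 and 1423 at E15.5. All 6 E15.5 libraries were below all 6 E12.5 libraries at Dlx1/2. At Dlx5/6 the E12.5 values were 6016, 4631 and 4970.5 in WT and 5212, 7567 and 6831 in KO. The E15.5 values at Dlx5/6 were 2802, 2300 and 2706 in WT and 2830.5, 3108 and 3172 in KO. Here too the highest E15.5 library lay below the lowest E12.5 library. For this and later comparisons, the share of all regions whose libraries separate in the same way is not given here.

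At Dlx3/4 the libraries of both stages mixed. The E12.5 libraries held 8209, 7224 and 6661 normalised counts in WT and 5114, 6744 and 6165 in KO. The E15.5 libraries held 7084, 6731 and 7055 in WT and 5981, 7420 and 5789 in KO. Over both genotypes the stage difference in mean log2 count was -1.14 at Dlx1/2 and -1.04 at Dlx5/6 (exact permutation within the genotypes, two-sided, p = 0.005 for each, the smallest that 400 assignments can give), against 0.01 at Dlx3/4 (exact permutation p = 0.945).

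**Figure D2:**
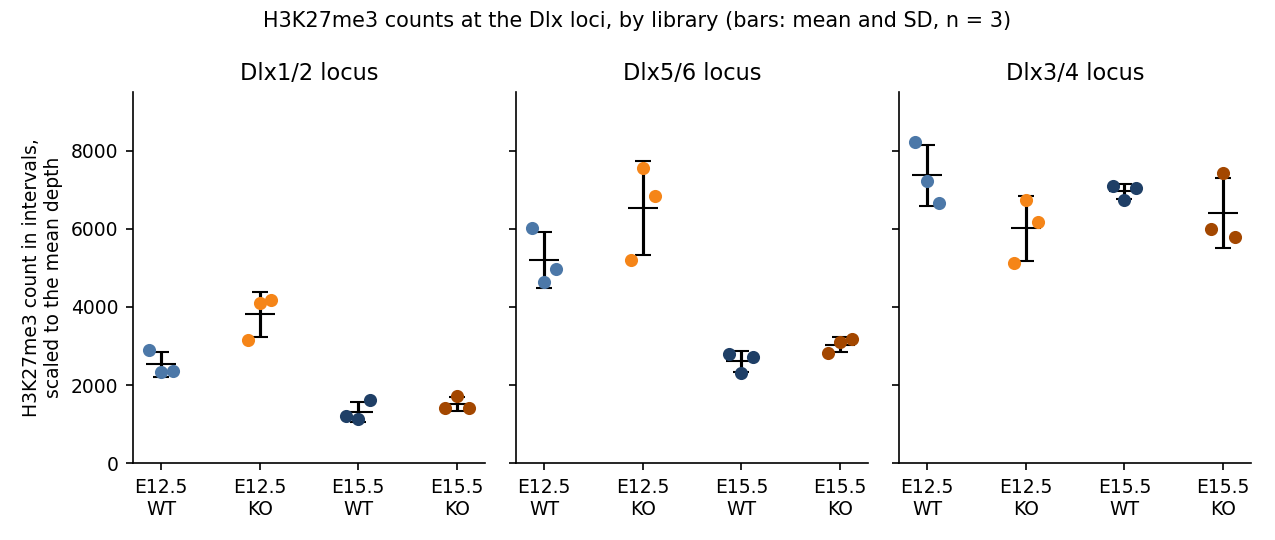
Normalised H3K27me3 counts (y axis, counts in intervals scaled to the mean depth) of each library (points) at the 3 loci by stage and genotype, with the mean and SD of 3 libraries. At Dlx1/2 and Dlx5/6 the E15.5 libraries lie below the E12.5 libraries, and at Dlx3/4 the stages overlap.

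The same counts were tested among all autosomal regions with edgeR's quasi-likelihood test and Benjamini-Hochberg adjustment. In KO MGE, Dlx1/2 fell by 1.31 on the log2 scale (SE 0.23, adjusted p = 6.81e-07) and Dlx5/6 fell by 1.11 (SE 0.21, adjusted p = 3.22e-06). The Dlx3/4 change was 0.09 (SE 0.19, adjusted p = 0.843). In this comparison 13.9% of 3145 regions passed the threshold of 0.05, 7.66% as lower and 6.20% as higher, and the median change was -0.07. A lower change than that of Dlx1/2 was found in 3.62% of regions and one lower than that of Dlx5/6 in 5.53%.

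In WT MGE, Dlx1/2 fell by 0.93 (SE 0.14, edgeR adjusted p = 0.000408) and Dlx5/6 fell by 1.00 (SE 0.12, edgeR adjusted p = 4.72e-05), with -0.08 at Dlx3/4 (SE 0.09, edgeR adjusted p = 0.495). The background was high here, since 47.8% of 2570 regions passed, 44.0% as lower and 3.81% as higher, and the median change was -0.59. Of these regions, 28.6% had a lower change than Dlx1/2 and 25.7% a lower one than Dlx5/6. With TMM factors, which move that median to -0.09, the WT changes were -0.48 at Dlx1/2 and -0.55 at Dlx5/6 and no longer passed (adjusted p = 0.078 and 0.0766), while 22.2% of regions were called lower and 16.1% higher. The KO changes passed with TMM factors as well, where 13.0% of regions were called lower. Whether the stage change differed between the genotypes was tested as an interaction. It gave -0.38 at Dlx1/2 (SE 0.25, edgeR adjusted p = 0.267) and -0.11 at Dlx5/6 (SE 0.23, edgeR adjusted p = 0.723). Of 2367 regions 6.21% passed the threshold, 147 as higher and 0 as lower, and the median was 0.61. A lower value than that of Dlx1/2 was found in 1.18% of regions and one lower than that of Dlx5/6 in 4.69%. TMM factors move that median to 0.07.

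**Figure D3:**
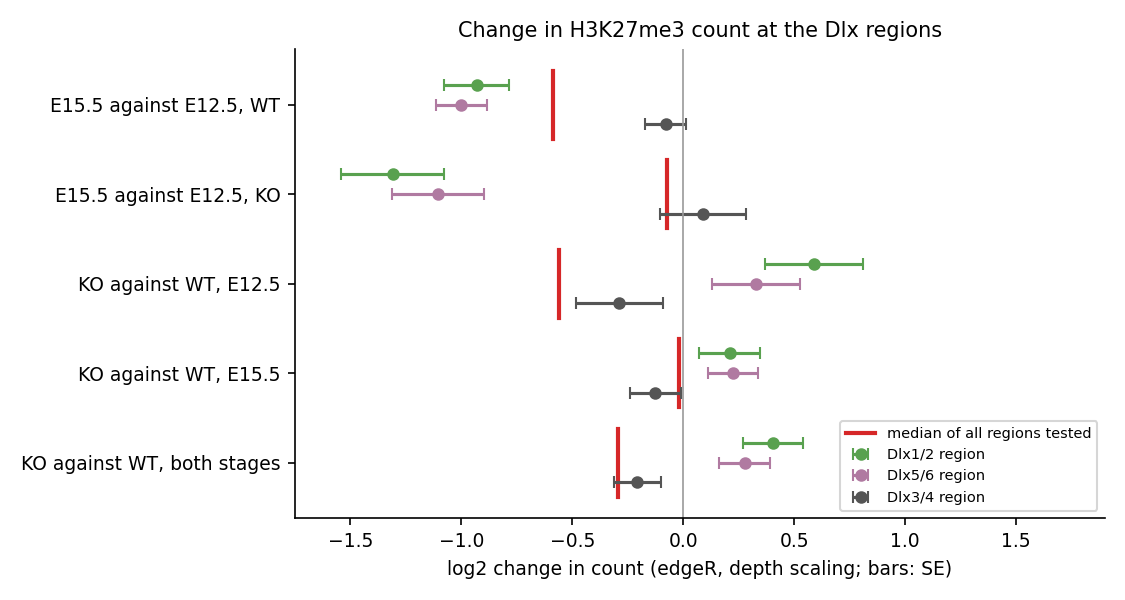
Log2 change in count (x axis) of the 3 regions in 5 comparisons (rows), with SE, and the median of all regions tested (red). In both stage comparisons Dlx1/2 and Dlx5/6 lie left of the median and Dlx3/4 right of it.

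A difference between loci within a library does not depend on how libraries are scaled. Counts per kb can still follow depth through the length of the intervals. In E12.5 WT the Dlx3/4 intervals covered 35.2 kb in replicate 1 (depth 0.117) and 57.2 kb in replicate 2 (depth 0.698). They held 233 and 126 normalised counts per kb, in that order. Dlx3/4 held more counts per kb than Dlx1/2 in 12 of 12 libraries, by 0.29 to 2.14 on the log2 scale, and more than Dlx5/6 in 11 of 12, by -0.02 to 1.64. Dlx5/6 in turn held more per kb than Dlx1/2 in 12 of 12 libraries, by 0.28 to 0.80. By this measure the order Dlx3/4, Dlx5/6, Dlx1/2 held in every library but E12.5 KO replicate 2, where Dlx3/4 and Dlx5/6 differed by -0.02. In the E12.5 KO libraries the order of Dlx3/4 and Dlx5/6 depended on the measure. Per kb inside the locus it was also reversed in replicate 3 (-0.05), with -0.14 in replicate 2, and as whole counts Dlx5/6 was above Dlx3/4 in all 3 (-0.03, -0.17 and -0.15). Dlx3/4 was above Dlx1/2 in 12 of 12 libraries by all 3 measures.

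The difference between Dlx3/4 and the forebrain pairs widened with stage in both genotypes. Dlx3/4 minus Dlx1/2 was 1.16, 1.03 and 1.08 in E12.5 WT and 1.83, 2.14 and 1.66 in E15.5 WT. In KO it was 0.58, 0.44 and 0.29 at E12.5 and 1.29, 1.85 and 1.84 at E15.5. The stages do not overlap within either genotype, and the mean rose by 1.01 over both (exact permutation within the genotypes, two-sided, p = 0.005, the smallest possible). Dlx3/4 minus Dlx5/6 rose by 1.06 (exact permutation p = 0.005), from a mean of 0.39 to 1.41 in WT and from 0.02 to 1.13 in KO. Dlx5/6 minus Dlx1/2 differed by -0.06 between the stages over both genotypes (exact permutation p = 0.585), with opposite signs in WT and KO. In WT it changed by -0.23 without overlap of the stages (exact permutation p = 0.1, the smallest that 3 against 3 libraries can give). In KO it changed by 0.12 (exact permutation p = 0.5). As whole counts the WT change was -0.04 (exact permutation p = 0.8).

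**Figure D4:**
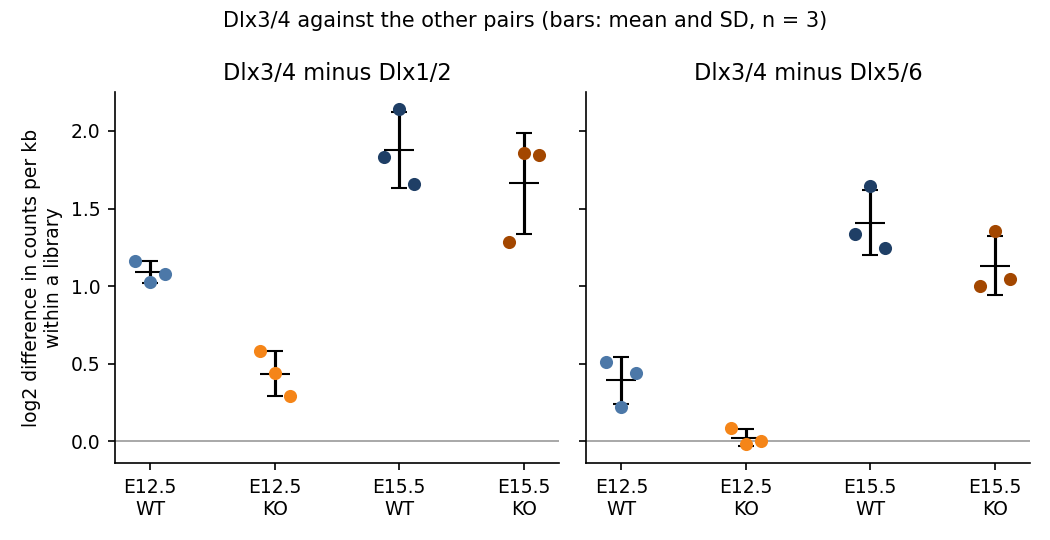
Log2 difference in counts per kb between Dlx3/4 and each forebrain pair (y axis) within each library (points), by stage and genotype, with the mean and SD of 3 libraries. The difference is higher at E15.5 than at E12.5 in both genotypes and lowest in E12.5 KO.

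No lower level of the mark was measured in KO at the forebrain pairs. The Dlx1/2 counts given above were higher in all 3 E12.5 KO libraries than in any E12.5 WT library, and at Dlx5/6 2 of the 3 KO libraries were. For Dlx1/2 the exact permutation p was 0.1, the smallest that 3 against 3 libraries can give. At E12.5 the edgeR change was 0.59 at Dlx1/2 (SE 0.22, adjusted p = 0.0593), 0.33 at Dlx5/6 (SE 0.20, adjusted p = 0.209) and -0.29 at Dlx3/4 (SE 0.20, adjusted p = 0.257), and none passed. Of 3236 regions 10.8% passed, 10.4% as lower and 0.340% as higher, and the median change was -0.56. The Dlx1/2 change was above that of 98.5% of regions and the Dlx5/6 change above that of 97.0%.

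The E12.5 result depends on the scaling and on single libraries. TMM factors move the median of all regions to -0.04, and with them the Dlx1/2 change was 1.09 and passed (edgeR adjusted p = 0.0179), among 2.97% of regions called higher. Without E12.5 KO replicate 1, which had the lowest KO count at all 3 loci, the Dlx1/2 change was 0.71 (edgeR adjusted p = 0.000271) and the Dlx5/6 change 0.47 (edgeR adjusted p = 0.0144). With other single omissions the edgeR adjusted p reached up to 0.391 at Dlx1/2 and 0.594 at Dlx5/6. The changes stayed positive, at no less than 0.52 and 0.21 in turn. The sign of the Dlx3/4 change turned with TMM factors, to 0.23.

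At E15.5 the edgeR changes were 0.21 at Dlx1/2 (SE 0.14, adjusted p = 0.497), 0.22 at Dlx5/6 (SE 0.11, adjusted p = 0.347) and -0.13 at Dlx3/4 (SE 0.12, adjusted p = 0.675), with 4.90% of 2774 regions past the threshold, 1.69% as lower and 3.21% as higher. The E15.5 change was above that of 76.1% of regions at Dlx1/2 and of 77.2% at Dlx5/6. At Dlx5/6 all 3 KO libraries lay above all 3 WT libraries (exact permutation p = 0.1, the smallest possible), and at Dlx1/2 the genotypes overlapped. Every KO library was also deeper than every WT library at this stage. Over both stages, with the stage as a term, the changes were 0.40 at Dlx1/2 (SE 0.14, edgeR adjusted p = 0.0546), 0.28 at Dlx5/6 (SE 0.11, edgeR adjusted p = 0.129) and -0.21 at Dlx3/4 (SE 0.10, edgeR adjusted p = 0.204), with 6.72% of 2367 regions past the threshold and 0.845% called higher. With TMM factors, which move the median of all regions from -0.29 to -0.02, Dlx1/2 passed at 0.67 (edgeR adjusted p = 0.0167), among 4.77% of regions called higher. As 1 value per locus and library, without any adjustment, the exact permutation test within the stages gave p = 0.025 for Dlx1/2, p = 0.035 for Dlx5/6 and p = 0.05 for Dlx3/4. The Dlx5/6 value did not hold when libraries were left out singly, with p up to 0.105.

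The contrast between the pairs also differed between the genotypes. Over both stages, Dlx3/4 minus Dlx1/2 was lower in KO by a mean log2 difference of -0.43 (exact permutation within the stages, two-sided, p = 0.03), and Dlx3/4 minus Dlx5/6 by -0.32 (exact permutation p = 0.015). At E12.5 the genotypes did not overlap for either difference, with a mean of 1.09 in WT and 0.44 in KO against Dlx1/2 (exact permutation p = 0.1, the smallest that 3 against 3 libraries can give). At E15.5 they overlapped (exact permutation p = 0.6 against Dlx1/2 and 0.3 against Dlx5/6). Per kb inside the locus, however, the E15.5 genotypes did not overlap against Dlx1/2 (-0.30, exact permutation p = 0.1). The value against Dlx1/2 came to an exact permutation p = 0.05 without E15.5 WT replicate 2 or without E15.5 KO replicate 1. When whole counts were used in place of counts per kb, a choice made after seeing the data, the differences were -0.62 and -0.49 (exact permutation p = 0.005 for each), and the genotypes overlapped at neither stage.

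The factors upstream of the Dlx genes and the genes they act on were taken as a list of 34, of which 27 could be tested in each stage comparison, 26 of them in both. In KO 5 of the 27 fell and 5 rose from E12.5 to E15.5, beside 7.66% and 6.20% of all regions, and with TMM factors 7 fell and 7 rose, beside 13.0% and 12.9%. In WT 11 of the 27 fell and 6 rose, beside 44.0% and 3.81% of all regions, and with TMM factors 5 fell and 11 rose, beside 22.2% and 16.1%. The share that fell in WT was near that of all regions. The list's median change was 0.09 in KO and -0.42 in WT, beside -0.07 and -0.59 over all regions. The 5 genes that fell in KO, Gsx2, Gad1, Gad2, Meis2 and Sp9, also fell in WT, with either scaling. Gsx2 is the homeodomain factor that Dlx2 depends on in the lateral eminence, Gad1 and Gad2 encode the enzymes that make GABA, and Sp9 encodes a zinc finger factor of ventral interneurons and striatal neurons.

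Gsx2 changed most. It held 988, 1262 and 929 normalised counts in E12.5 WT and 183, 227 and 553 in E15.5 WT, and fell by 1.69 on the log2 scale (SE 0.31, edgeR adjusted p = 0.00127). In KO it held 1266, 1231 and 1963 at E12.5 and 377, 459 and 292 at E15.5, a change of -1.99 (SE 0.30, edgeR adjusted p = 1.36e-09). No E15.5 library reached the lowest E12.5 library. Gad1 held 1755, 1630 and 1709 in E12.5 WT and 654, 733 and 820 in E15.5 WT, with a change of -1.20 (SE 0.13, edgeR adjusted p = 2.39e-05) and of -1.01 in KO (SE 0.27, edgeR adjusted p = 0.00253). Gad2 changed by -1.16 in WT and -1.03 in KO. Slc32a1, the transporter that loads GABA into vesicles, fell by 0.84 in WT (SE 0.14, edgeR adjusted p = 0.000599) and changed by -0.53 in KO (SE 0.26, edgeR adjusted p = 0.171).

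Other members of the list moved the opposite way. Six3, Gbx1, Nrp2 and Sp8 rose in both genotypes, with either scaling. Six3, a homeodomain factor of the anterior forebrain, rose by 0.92 in WT (SE 0.11) and by 1.55 in KO (SE 0.25), and its E12.5 libraries held 905 to 2273 normalised counts and its E15.5 libraries 2437 to 4003. Nrp2, a semaphorin receptor gene that DLX factors are known to repress, rose by 0.49 in WT and 1.05 in KO. Nkx2-1, which defines the MGE, rose by 0.98 in WT (SE 0.25, edgeR adjusted p = 0.00717) and changed by 0.43 in KO (SE 0.22, edgeR adjusted p = 0.21).

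The genes of the list were also compared between the genotypes. At E12.5, 5 of the 27 genes tested were lower in KO (Maf, Six3, Meis1, Meis2 and Ebf1) and 1 was higher, Nkx2-1 with 1.19 (SE 0.24, edgeR adjusted p = 6.3e-05), beside 10.4% and 0.340% of all regions, while TMM factors gave 2 lower and 5 higher calls, beside 4.45% and 2.97% of all regions. At E15.5 1 of the 27 genes tested was lower and 2 were higher, beside 1.69% and 3.21% of all regions. Meis2 was lower by -1.08 (SE 0.25), and Lhx6, a factor of MGE-derived interneurons, and Sp9 were higher by 0.52 (SE 0.12) and 0.43 (SE 0.11). With TMM factors Six3 was also called lower (-0.40, edgeR adjusted p = 0.0306), beside 3.03% of all regions.

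**Figure D5:**
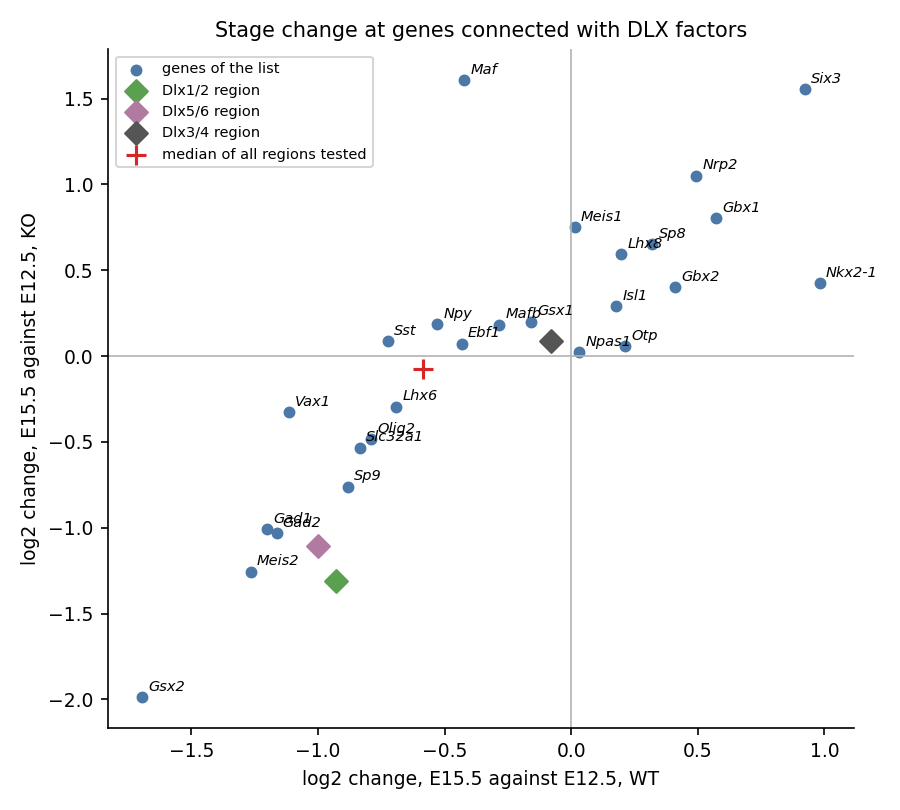
Log2 change from E12.5 to E15.5 in WT (x axis) and in KO (y axis) for 26 genes of the list tested in both, with the 3 Dlx regions (diamonds) and the median of all regions (cross). Dlx1/2 and Dlx5/6 lie with Gad1, Gad2 and Meis2 at the lower left, and Dlx3/4 lies near 0.

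Across the 12 libraries the regions whose log2 normalised counts ran most like each pair were listed as a description. For Dlx1/2, the closest of 2366 regions held Rhbg (Pearson r = 0.98), an ammonium transporter gene, the next was Dlx5/6 itself (r = 0.97), followed by Foxo6 (r = 0.94) and Gsx2 (r = 0.94). For Dlx5/6 they held Nfix with Trmt1, Lyl1 and Dand5 (r = 0.98), Ets1 (r = 0.96) and Tfap2d (r = 0.96). For Dlx3/4 they held Fev with Cdk5r2, Cryba2 and Cfap65 (r = 0.96), Onecut3 (r = 0.95) and Dmrt1 with Dmrt3 (r = 0.95). Dlx3/4 had r = -0.08 to Dlx1/2 and -0.01 to Dlx5/6. The median r of all regions to Dlx3/4 was 0.34, and 95.1% of regions had a higher r to it than Dlx1/2 and 92.1% than Dlx5/6. The median r to Dlx1/2 was 0.20 and that to Dlx5/6 was 0.24. To these pairs only 68.0% and 66.3% of regions, in that order, had a higher r than Dlx3/4. These values share libraries and depth scaling and include the stage difference.

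Genes of neighbouring tissues were read as levels of the mark, which do not name cells. Of 7 genes of the dorsal pallium 6 had a region in all 12 libraries, and their summed level ranged from 827 to 1363 normalised counts per kb in E12.5 WT, 810 to 1004 in E12.5 KO, 983 to 1150 in E15.5 WT and 759 to 985 in E15.5 KO. The sums of the 3 MGE genes Nkx2-1, Lhx6 and Lhx8 were 238 to 315, 220 to 431, 260 to 380 and 271 to 390 in the same order. Both sums overlapped between the stages and between the genotypes, but single genes moved. Emx2, a factor of the dorsal pallium, was lower in KO at E12.5 by -0.67 on the log2 scale (SE 0.21, edgeR adjusted p = 0.0224, and 0.665 with TMM factors). In the E15.5 libraries it had 110 per kb in WT and 64.6 in KO, and KO was lower there as well (-0.74 with SE 0.13, edgeR adjusted p = 0.00451). Emx2 also fell with stage, by 0.84 in WT (SE 0.13, edgeR adjusted p = 0.000509, and 0.146 with TMM factors) and by 0.90 in KO (SE 0.24, edgeR adjusted p = 0.00221), and Eomes fell by 0.30 in WT (SE 0.09, edgeR adjusted p = 0.0207, and 0.487 with TMM factors). The other 4 pallial genes tested passed in none of these 4 comparisons with depth scaling, and with TMM factors Tbr1 passed as higher with stage in WT (0.48, edgeR adjusted p = 0.0185). In E12.5 WT the level at Nkx2-1 was 37.9 ± 7.20 per kb (SD, n = 3), below each of the 6 pallial genes, among which Emx1 had 187 and Pax6 269. Of the other MGE genes, Lhx8 had 91.0, also below each of the pallial genes. Lhx6 had 135 ± 38.1 (SD, n = 3), above Eomes with 132. Of the 5 ectodermal genes, Msx1 and Msx2, which are active with Dlx3 and Dlx4 in facial and limb tissue, were marked in all 12 libraries, and their summed level was 254 to 438, 317 to 355, 359 to 531 and 290 to 406 in that order. Krt5 and Krt14 had no interval in any library, nor had the vessel and blood genes Pecam1 and Csf1r, and Cldn5, a tight junction gene of vessel cells, was the 1 of 4 such genes marked in all 12. Cldn5 fell with stage in WT by 0.99 (SE 0.22, edgeR adjusted p = 0.00375), in the comparison in which Dlx1/2 and Dlx5/6 fell, and it also passed with TMM factors (-0.50, edgeR adjusted p = 0.0154). In KO its stage change was -0.14. The part of tissue composition in the results was not tested.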

How the data were processed

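H3K27me3 CUT&Tag intervals of 12 libraries were used, 1 list per library. Per the submitters' processing notes, cutadapt, Bowtie2, SAMtools, Picard, deepTools and SICER were used with GRCm38 (mm10), and their versions and settings are not given in the sources used here. The count of an interval is a raw whole number as the authors deposited it. The score that the authors deposited beside it was used to recover the depth: in intervals of 1 window of 200 bp it is the negative natural log of a Poisson probability of the count, which fixes the mean count per window (largest misfit 0.0036). That this mean follows the total reads is an assumption.

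Regions are merged autosomal intervals present in every library compared. Their summed counts were tested with edgeR 4.0.16 (quasi-likelihood test, library sizes proportional to depth, Benjamini-Hochberg adjustment over all regions, threshold 0.05) in R 4.3.3, and with DESeq2 1.42.0 as an alternative. SE is the change over the square root of F. The edgeR script was tested on simulated data. Single values per library were compared by exact two-sided permutation over 20 assignments per stage or genotype (smallest p 0.1) or 400 within stages or genotypes (smallest p 0.005). This was planned for 2 measures at 3 loci and 2 differences between loci, with no adjustment. The stage tests of the locus counts and differences, the difference between Dlx5/6 and Dlx1/2, and the whole-count version were added after seeing the data. Values per library were computed in Python 3.11.15 with pandas 2.3.3, numpy 2.4.6 and scipy 1.17.1, and plotted with matplotlib 3.10.9. The Dlx genes and the lists were chosen with earlier results of these data known. Named genes are the Dlx genes, their neighbours, up to 8 list genes per comparison with the smallest p, and the 3 regions most like each pair; Sp8 and Gbx1 were named beyond that after their values were seen. Gene positions are from the RefSeq table of GRCm38.p6, counted from 1.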

Additional observations from a re-analysis of the deposited data

How the results depend on the processing

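Over 32 results and 518 alternative values, 468 kept their direction and their side of the threshold. This count includes the genotype tests of the locus differences at a single stage, with 12 alternatives each. Their exact permutation p cannot be below 0.1, so only their direction could change. The fall of Dlx1/2 and Dlx5/6 in KO from E12.5 to E15.5 passed in all 15 alternatives each, at -1.43 to -1.24 and -1.25 to -0.99, and the stage change of both locus differences passed in all 18 each. With TMM factors and with DESeq2 size factors in turn, the WT stage changes were -0.48 and -0.41 at Dlx1/2 and -0.55 and -0.46 at Dlx5/6, none past the threshold, and that of Dlx3/4 turned to 0.38 and 0.47. In the same order, the KO change at E12.5 was 1.09 and 1.14 at Dlx1/2, both past it, and 0.23 and 0.28 at Dlx3/4. Over both stages it was 0.67 and 0.68 at Dlx1/2, both past it, and 0.051 and 0.075 at Dlx3/4. The interaction at Dlx3/4 was -0.39 and -0.46. With DESeq2 alone, the KO change at Dlx5/6 passed at E12.5 (0.88) and over both stages (0.55), and the interaction at Dlx1/2 passed (-0.96). Interval counts taken in proportion to the bases inside the locus gave 0.41 for Dlx1/2 (exact permutation p = 0.055) and 0.27 for Dlx5/6 (exact permutation p = 0.05). With 5000 bp flanks the covered share of Dlx3/4 differed by -0.22 percentage points.

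Leaving out 1 library at a time, the KO change at E12.5 ranged from 0.52 to 0.71 at Dlx1/2 and from 0.21 to 0.47 at Dlx5/6, and over both stages from 0.35 to 0.50 and from 0.22 to 0.33. Dlx1/2 passed over both stages without E12.5 KO replicate 1, E15.5 WT replicate 3, E15.5 KO replicate 1 or E15.5 KO replicate 3, and Dlx5/6 without E12.5 KO replicate 1. The stage change at Dlx3/4 ranged from -0.14 to 0.00264 in WT and from -0.031 to 0.18 in KO, and the interaction at Dlx5/6 from -0.25 to 0.012. As mean log2 counts, the genotype difference ranged from 0.35 to 0.48 at Dlx1/2, from 0.22 to 0.35 at Dlx5/6 and from -0.27 to -0.16 at Dlx3/4, which passed without E12.5 KO replicate 2 or E15.5 KO replicate 2. The covered share difference ranged from -1.03 to 2.20 percentage points at Dlx1/2 and from -1.27 to 3.38 at Dlx3/4. Dlx3/4 minus Dlx1/2 ranged from -0.49 to -0.34. The cause of these shifts was not tested.

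Replicate numbers are shared between groups, and the labels tie a number to no shared litter or batch. The correlations of deviations of same-numbered libraries ran from 0.03 to 0.23 between the E12.5 genotypes, from 0.04 to 0.26 between the WT stages, from 0.09 to 0.12 between the KO stages and from -0.25 to -0.08 between the E15.5 genotypes. In no comparison were all 3 above 0.1, and only between the KO stages did every library correlate best with its own number. With the replicate number as a block, the sign-flip test of 6 pairs gave exact p = 0.0938 for Dlx1/2 (0.40) and Dlx5/6 (0.27) and exact p = 0.0625 for Dlx3/4 minus Dlx1/2 (-0.43). The block in edgeR changed no call at the 3 regions. Limits on regions of like covered length gave no value for some loci, since their lengths differed by more than 1.5-fold. The low depth of the E15.5 WT libraries, 0.0751 at the least, limits how far their intervals can be followed.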
